A study of Homo sapiens with 5 samples.

Results

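The SOX genes encode transcription factors that bind DNA through a high-mobility-group (HMG) box. They are sorted into subgroups by the similarity of that box. Of the 36601 genes listed for D0, D5 and D10 and the 33538 listed for D22, D24 and D26, 10 were chosen by their symbols: SOX1, SOX2, SOX3, SOX4, SOX5, SOX6, SOX9, SOX10, SOX11 and SOX21. All 10 are listed in every library. SOX1, SOX2 and SOX3 (SOXB1) keep neural progenitors dividing and undifferentiated, and SOX2 is also a core factor of pluripotent cells. SOX21 (SOXB2) acts largely against SOXB1 factors. SOX4 and SOX11 (SOXC) act in newly born neurons, SOX5 and SOX6 (SOXD) lack an activation domain of their own and help to set the identity of neurons, and SOX9 and SOX10 (SOXE) are known from radial glia, neural crest and glial cells.

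The cells were the wild-type human embryonic stem cell line WA09, differentiated in culture towards neurons that make gonadotropin-releasing hormone (GnRH), and single-cell RNA sequencing on 10x Genomics droplets counted unique molecular identifiers (UMIs, about 1 per captured 3′ end of an mRNA). D0 was undifferentiated. D5_dSMADi and D10_dSMADi had received dual SMAD inhibition (dSMADi, dorsomorphin and SB431542), which turns stem cells into neural progenitors, and D5_XAV939 and D10_XAV939 had in addition received 10 µM of the Wnt pathway inhibitor XAV939. These 5 cultures were tagged and pooled in 1 droplet run and 1 sequencing library, and the cells of each tag are called a library below. D22, D24 and D26 came from the protocol without XAV939, as separate libraries, after dSMADi, FGF8, a freeze and thaw, and then the Notch pathway inhibitor DAPT. All groups are 1 library of 1 cell line, so nothing below was tested against the spread between cultures, and every interval is a 95% interval of counting error only. The early and late libraries differ in run, dissociation and Cell Ranger version, and D22, D24 and D26 are separate runs, so day and run cannot be told apart from D10 on.

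The HMG box is shown because it is what the 10 genes share, and because it shows how close the members are that are compared below. In a MAFFT alignment of the translated coding sequences of GENCODE 44, the stretch without a gap in any member was 252 bases long. Over it, 89.3% of the bases of SOX1 were those of SOX2, against 84.9% for SOX21, 81.7% for SOX3, 70.2% for SOX9, 67.9% for SOX10, 64.7% for SOX4 and SOX11, and 58.7% for SOX5 and SOX6. SOX4 shared 85.7% with SOX11, and SOX9 89.3% with SOX10. The first 60 bases of the stretch on GRCh38 are given 5′ to 3′ for 7 members, with each base that differs from SOX2 in capitals.
SOX2: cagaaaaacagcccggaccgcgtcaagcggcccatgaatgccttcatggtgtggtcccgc
SOX1: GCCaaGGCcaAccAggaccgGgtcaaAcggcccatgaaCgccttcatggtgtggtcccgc
SOX3: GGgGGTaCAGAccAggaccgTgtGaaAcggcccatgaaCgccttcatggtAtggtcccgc
SOX21: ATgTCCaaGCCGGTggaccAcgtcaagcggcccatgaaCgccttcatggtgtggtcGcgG
SOX11: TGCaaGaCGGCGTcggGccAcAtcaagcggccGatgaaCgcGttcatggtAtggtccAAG
SOX5: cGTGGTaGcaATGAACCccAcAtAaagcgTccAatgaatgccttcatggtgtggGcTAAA
SOX9: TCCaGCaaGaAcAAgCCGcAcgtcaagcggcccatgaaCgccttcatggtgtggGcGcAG
They lie in coding exons at chr3:181712460-181712519 for SOX2 and chr13:112067788-112067847 for SOX1, both on the plus strand, and at chrX:140504608-140504667 for SOX3 and chr13:94711990-94712049 for SOX21, both on the minus strand. SOX11 lies at chr2:5692845-5692904 (plus), SOX5 at chr12:23543278-23543337 (minus) and SOX9 at chr17:72121683-72121742 (plus). SOX1, SOX2, SOX3, SOX4, SOX11 and SOX21 have 1 exon, and the stretch of SOX5, SOX6, SOX9 and SOX10 is split over 2 exons.

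Several members share their locus with another transcript, and strand use in the counting was not given in the sources used here, which leaves their counts uncertain. SOX1 (ENSG00000182968) lies within SOX1-OT and SOX2 (ENSG00000181449) within SOX2-OT, on the same strand. SOX21 (ENSG00000125285) overlaps SOX21-AS1, SOX9 (ENSG00000125398) SOX9-AS1, SOX5 (ENSG00000134532) SOX5-AS1, SOX6 (ENSG00000110693) C11orf58 and SOX10 (ENSG00000100146) POLR2F, all on the other strand. By these symbols, SOX2-OT and SOX9-AS1 are listed for the early libraries but not for the late ones. No named gene overlaps SOX3 (ENSG00000134595), SOX4 (ENSG00000124766) or SOX11 (ENSG00000176887).

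After the study's limits on cells, 40513 of 44007 barcodes were kept, 1009 at D0, 2168 to 2815 in the D5 and D10 cultures and 9107 to 11056 at D22, D24 and D26. The cells analyzed in the paper, dSMADi before XAV939, were 2480 and 2919 at D5 and 2778 and 2638 at D10. These equal all barcodes deposited there, so the cell sets differ from those used here. In D10_XAV939 82.2% of the barcodes were kept. They held 58073098 to 130440502 UMIs per library, with a median of 69455 per cell at D0, 24290.5 to 31112.5 at D5 and D10, and 7180 to 12179 later. Levels are UMIs summed over the cells of a group per 1000000 UMIs of that group (CPM). The tagged cultures shared 0 barcodes with each other, and any pair that included a late library shared 1 to 37. The labelled stages were checked by markers. The summed level of 5 pluripotency genes was 4071 CPM at D0 and 550 to 822 at D5 and D10, that of 6 neural progenitor genes 2954 to 4146 at D10 and D22, and that of 6 neuronal genes 11218 to 11590 at D24 and D26. Since cells were summed, a lower level may mean fewer cells of a type or less RNA in each, which the sums cannot tell apart.

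The SOXB1 and SOXB2 genes were lower at D0 than at D5 and D10, and lower at D24 and D26 than at D10 and D22. SOX2 was at 382 CPM at D0, 717 and 853 CPM in D5_dSMADi and D5_XAV939, 717 and 1012 CPM in D10_dSMADi and D10_XAV939, and 224 (interval 222 to 227), 17.2 and 10.6 CPM at D22, D24 and D26. SOX2 was thus already abundant in undifferentiated cells, 1.88-fold below D5_dSMADi, while the other SOXB genes were at 15.8 CPM or less there. SOX1 was at 0.830 CPM at D0, 3.40 and 3.52 CPM at D5, 61.3 and 59.1 CPM at D10, and 43.2, 4.46 and 9.68 CPM at D22, D24 and D26, with dSMADi before XAV939 here and below. SOX3 was at 15.8 CPM at D0, 33.3 and 35.6 CPM at D5, 170.2 and 69.7 CPM at D10, and 42.0, 5.15 and 3.59 CPM in the late libraries. D10_dSMADi stood alone for SOX3, above every other library. SOX21 was at 5.56 CPM at D0, 125 and 142 CPM at D5, 130.2 and 157 CPM at D10, and 33.3, 2.91 and 2.10 CPM late. SOX21 therefore stood near its D10 level by D5, and SOX1 did not. Neighbours in the order of levels whose intervals overlapped were D10_dSMADi and D10_XAV939 for SOX1, the D5 cultures for SOX1 and SOX3, and D5_dSMADi and D10_dSMADi for SOX2.

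The SOXC genes were highest late. SOX4 was at 538 CPM at D0, 424 and 481 CPM at D5, 609.5 and 526 CPM at D10, and 2405, 2546 and 2969 CPM at D22, D24 and D26. SOX11 was at 92.5 CPM at D0, 323 and 425 CPM at D5, 274 and 419.7 CPM at D10, and 1189, 1881 and 1901 CPM late. Both were the most abundant members by UMIs in each late library. After each cell was thinned to 1500 UMIs, a SOX4 UMI was found in 90.7% of cells at D22, 94.1% at D24 and 96.5% at D26, and a SOX2 UMI in 23.0%, 1.80% and 1.20%.

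The SOXD genes were nearly absent at D0. SOX5 was at 1.82 CPM at D0, 35.8 and 46.4 CPM at D5, 30.3 and 54.8 CPM at D10, and 56.2, 24.5 and 68.2 CPM at D22, D24 and D26. SOX6 was at 0.790 CPM at D0, 7.20 and 4.60 CPM at D5, 24.1 and 25.7 CPM at D10, and 25.9, 6.83 and 11.7 CPM late. SOX5 and SOX6 both had their lowest late level at D24. Among the SOXE genes, SOX9 was at 6.61 CPM at D0, 11.4 and 15.8 CPM at D5, 21.8 and 58.4 CPM at D10, and 9.25, 12.1 and 4.42 CPM late. D10_XAV939 was the only library above 21.8 CPM for SOX9. SOX10 had 30 UMIs at D0, 112 and 28 at D5, 10 and 4 at D10, 2 at D22 and 0 at D24 and D26, where 0 UMIs allow up to 0.0428 and 0.0302 CPM. Its highest level was 1.41 CPM in D5_dSMADi. Neighbours in order whose intervals overlapped were D5_XAV939 and D10_XAV939 for SOX11, D22 and D10_XAV939 for SOX5, D24 and D5_dSMADi for SOX9, both D10 cultures and D22 as well as D5_dSMADi and D24 for SOX6, and all libraries but D5_dSMADi for SOX10.

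**Figure D1:**
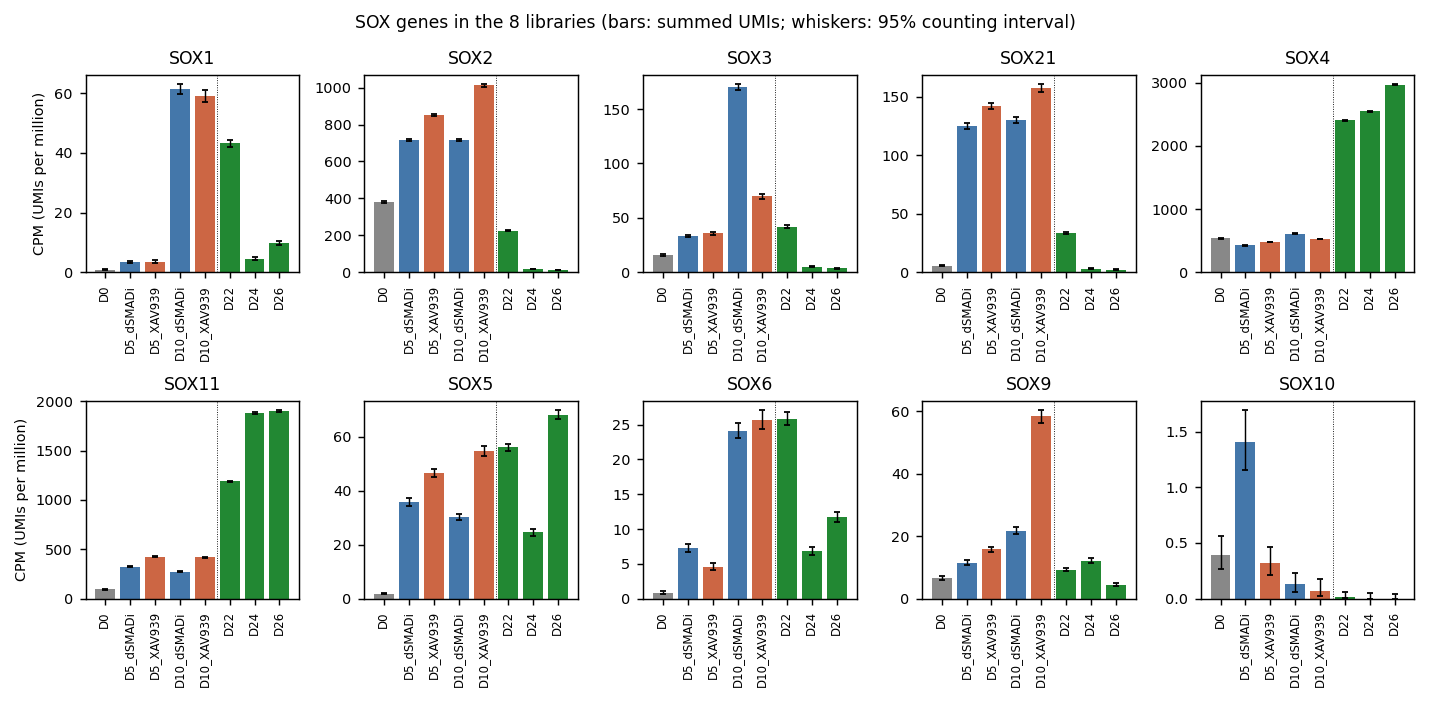
Level of each SOX gene in CPM (vertical axis, linear, from 0, its own scale in each panel) in the 8 libraries (horizontal axis). Grey marks D0, blue dSMADi, orange XAV939 and green the late libraries, whiskers are 95% counting intervals, and the dotted line parts the pooled run from the late libraries. SOX3 peaks at 170.2 CPM in D10_dSMADi and SOX9 at 58.4 CPM in D10_XAV939, while SOX4 and SOX11 are highest at D22 to D26.

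Differences between consecutive libraries of one protocol were read as ratios of CPM, with 1.5-fold as the limit, over genes with at least 50 UMIs in the pair. From D0 to D5_dSMADi, 9 of 10 members were past 1.5-fold higher and 0 lower, where 22.1% of 16438 genes were higher and 32.9% lower. The largest ratios were those of SOX21 (22.4-fold, interval on the log2 scale 4.34 to 4.63) and SOX5 (19.7-fold, 4.05 to 4.56). SOX4 was the exception, at a log2 ratio of -0.34, where the median of all genes was -0.14. From D5_dSMADi to D10_dSMADi the members that stood out were others. SOX1 was 18.0-fold higher, SOX3 5.12-fold, SOX6 3.35-fold and SOX9 1.90-fold, and SOX10 was 11.1-fold lower. The background was 23.0% of genes higher and 5.89% lower. SOX2 was level, at a log2 ratio of 0.00 (interval -0.02 to 0.02), or -0.21 with a median-of-ratios scaling, since the median log2 ratio of genes with 50 UMIs in each library was 0.21.

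From D22 to D24, all 4 SOXB genes were lower. SOX2 was 13.0-fold lower, SOX21 11.5-fold, SOX1 9.68-fold and SOX3 8.17-fold, and SOX6 and SOX5 were 3.79-fold and 2.29-fold lower. These 6 of 9 members measured were past 1.5-fold lower, against 28.3% of 16188 genes, whose median log2 ratio was -0.11. SOX11 was the only one past it in the other direction, at 1.58-fold higher, against 21.1% of genes, and without mitochondrial and ribosomal protein genes in the scaling it was under the limit, at a log2 ratio of 0.58. The 5 genes of dividing cells summed to 994 CPM at D22, 47.6 at D24 and 13.5 at D26, and the 6 progenitor genes to 4146, 875 and 875 CPM. Their part in the SOX levels was not tested.

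From D24 to D26, SOX5 was 2.78-fold, SOX1 2.17-fold and SOX6 1.71-fold higher, 3 of 9 members, where 29.7% of 15619 genes were higher. SOX9 and SOX2 were 2.73-fold and 1.62-fold lower, where 9.75% of genes were. With the mean of CPM per cell SOX2 was under the limit, at a log2 ratio of -0.58. The median of all genes was shifted by 0.31 on the log2 scale here. Relative to it, with the median-of-ratios scaling, SOX5 was at 1.17, SOX1 at 0.81 and SOX6 at 0.47, so that 2 members were past 1.5-fold higher, and SOX3 (-0.83) and SOX21 (-0.78) joined SOX9 and SOX2, so that 4 were lower. SOX4 and SOX11 were at -0.09 and -0.29 in place of 0.22 and 0.02.

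The tagged cultures ask what blocking the Wnt pathway during the first days does. At D5 all 10 members had at least 50 UMIs in the pair. SOX10 and SOX6 were lower with XAV939 past 1.5-fold, 2 of 10 members against 4.99% of 15966 genes, and 0 members were past it in the other direction, against 6.85%. SOX6 had 574 UMIs without and 399 with XAV939, a log2 ratio of -0.65 (interval -0.83 to -0.46), and SOX10 had 112 and 28 UMIs, a log2 ratio of -2.12 (interval -2.77 to -1.51). The genes on their other strand, C11orf58 and POLR2F, were at log2 ratios of -0.04 and 0.08. The other 8 members lay between 0.05 for SOX1 and 0.47 for SOX9. Among cells with at least 5 UMIs of MKI67 and TOP2A, SOX6 was under the limit, at -0.47. Among cells with 0 UMIs of MKI67 and TOP2A, SOX1 was at -0.80, with 21 UMIs with and 45 without XAV939, and SOX9 at 0.85. The median of the 10 log2 ratios was 0.18, and that of all genes 0.05.

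At D10, SOX3 was 2.44-fold lower with XAV939, and SOX9, SOX5 and SOX11 were 2.68-fold, 1.81-fold and 1.53-fold higher. These were 1 and 3 of the 9 members with 50 UMIs or more, against 10.2% of 16077 genes lower and 6.78% higher. SOX3 had 13404 UMIs in D10_dSMADi and 4045 in D10_XAV939, a log2 ratio of -1.29 (interval -1.34 to -1.24). The closely related SOX1 was at -0.05 (interval -0.12 to 0.01) and SOX2, at 1.41-fold, was higher with a log2 ratio of 0.50 (interval 0.48 to 0.51), so the SOXB1 genes differed from each other. SOX21 was at 0.27, SOX6 at 0.10 (interval -0.00 to 0.19) and SOX4 at -0.21. Without mitochondrial and ribosomal protein genes in the scaling, SOX11 was under the limit, at 0.58. SOX10 had 10 and 4 UMIs, too few for a ratio.

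Shares of cells were taken at equal depth. With each cell thinned to 10000 UMIs, 70.0% of D10_dSMADi cells and 38.3% of D10_XAV939 cells had a SOX3 UMI, and 17.2% and 36.3% had a SOX9 UMI. For SOX1 the shares were 42.2% and 40.5%. SOX9-AS1, which lies on the other strand from SOX9, had a log2 ratio of 1.35 at D10 and 0.60 at D5, and SOX2-OT one of 0.35 at D5 and 1523 UMIs without against 1122 with XAV939 at D10, where its level was 19.3 CPM in both.

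**Figure D2:**
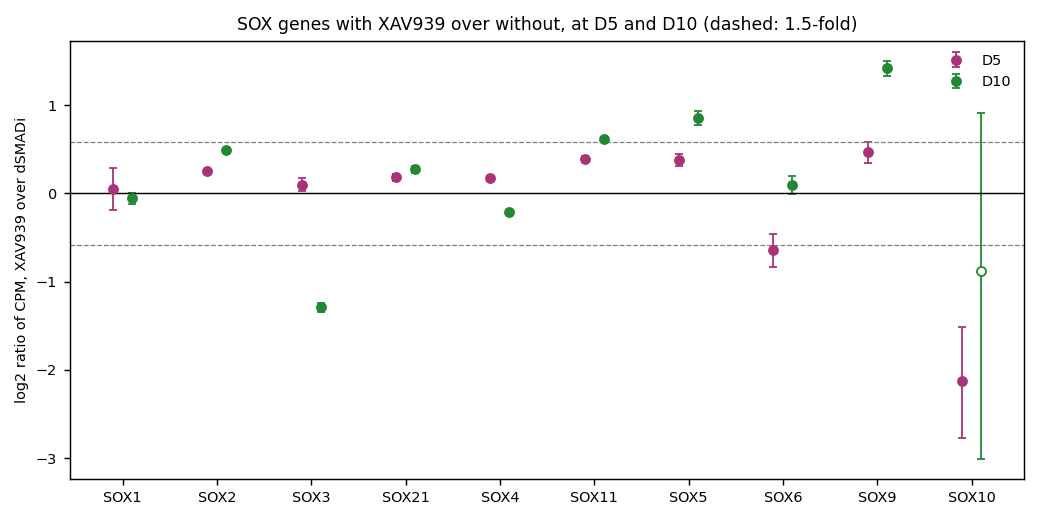
Log2 ratio of CPM with XAV939 over without (vertical axis) for each SOX gene (horizontal axis) at D5 and D10, 1 tagged culture for each condition, with 95% counting intervals. The dashed lines are 1.5-fold, and the open circle is SOX10 at D10, which rests on 4 and 10 UMIs. SOX3 lies at -1.29 at D10 and 0.10 at D5, and SOX9 at 1.42 and 0.47.

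The cultures also differed in other markers. At D10 the 6 neuronal genes summed to 630 CPM with XAV939 and 399.6 without, and the 5 dividing-cell genes to 1562 and 1319 CPM. Of the neural crest genes, counted in the cells without SOX10, TFAP2A was at 10.2 CPM with XAV939 and 0.804 CPM without, from 591 and 63 UMIs, and NGFR at 4.74 and 5.18 CPM. FOXD3, TFAP2B, SNAI2, PAX3, PAX7, ETS1 and ERBB3 were each at 1.22 CPM or lower in both. The part of these genes in the SOX9 difference was not tested. In cells without a UMI of the neuronal gene STMN2 (1933 with and 2255 without XAV939) the log2 ratios were -1.31 for SOX3, 1.47 for SOX9, 0.86 for SOX5, 0.61 for SOX11 and 0.52 for SOX2, so they were about as large there, with 3 members past 1.5-fold higher (5.9% of genes) and 1 lower (10.4%). Among the 80 cells with and 24 without XAV939 that had at least 5 STMN2 UMIs, SOX5 and SOX9 were past it higher, 2 of 8 members against 8.94% of genes, and 0 were lower, against 10.3%, but SOX9 had 47 UMIs with and 3 without XAV939 there. The direct Wnt targets AXIN2, LEF1, NKD1 and ZNRF3 held 0 of 4 past 1.5-fold at D10, where 6.78% of all genes were higher and 10.2% lower. At D5 NKD1, 1 of 4, was past it, higher with XAV939, where 6.85% were higher and 4.99% lower. AXIN2 was at 3.22 CPM with and 4.24 CPM without XAV939 at D10.

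Cells with at least 5 STMN2 UMIs at D10 were few, 80 with XAV939 and 24 without. In both cultures they held more SOX4 and less SOXB than cells with 0 STMN2 UMIs. SOX4 was at 1112 against 500.4 CPM with XAV939 and at 1620.1 against 602 CPM without, while SOX2 was at 410.4 against 1032 CPM and at 339.7 against 720.0 CPM. SOX11 was at 527 against 413 CPM and 543 against 271 CPM. With XAV939, 1 of the 9 members measured was past 1.5-fold higher (SOX4) and 6 lower, where 16.3% of genes were higher and 22.2% lower. Without it, 2 members were higher (SOX4 and SOX11) and 6 lower, against 22.9% and 28.4%. The 6 were SOX1, SOX2, SOX3, SOX6, SOX9 and SOX21 in both cultures, and SOX6 and SOX9 without XAV939 rest on 8 and 3 UMIs.

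At D22 cells were split by UMIs of MKI67 and TOP2A, genes of dividing cells, into 2043 cells with at least 5, 1582 with 1 to 4 and 5898 with 0. SOX2 was at 413 CPM in the first class, 195 CPM in the second and 136 CPM in the third. SOX1 was at 65.7, 42.3 and 31.9 CPM, SOX3 at 64.6, 40.5 and 30.9 CPM, SOX21 at 49.9, 36.7 and 23.8 CPM and SOX9 at 12.4, 9.94 and 7.45 CPM. All 5 stood in the order of the MKI67 and TOP2A count. Of these, SOX1, SOX2 and SOX3 were past 1.5-fold higher in the first class than in the second, against 11.9% of genes, and SOX5 was past it lower, against 9.41%. SOX5, in contrast, was at 40.6, 64.2 and 61.8 CPM, SOX11 at 978, 1184 and 1298 CPM, SOX4 at 2404, 2776 and 2300.5 CPM and SOX6 at 25.5, 29.3 and 25.1 CPM.

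Between at least 5 and 0, the log2 ratio was 1.60 (interval 1.56 to 1.63) for SOX2, 1.07 for SOX3 and SOX21, 1.04 for SOX1, 0.73 for SOX9 and -0.61 for SOX5. Thus 5 of 9 members were past 1.5-fold higher in the dividing class, against 15.1% of 14738 genes, and 1 lower, against 17.4%. SOX11 was at -0.41, SOX4 at 0.06 and SOX6 at 0.03, which became -0.02 without mitochondrial and ribosomal protein genes in the scaling. SOX10 had 1 UMI in each of these 2 classes. SOX5 was near the limit, and under it with a gate of at least 3 UMIs (-0.57), with MKI67 alone (-0.57) and with a gate after thinning (-0.53). The median depth was 17361 UMIs per cell in the dividing class and 11724.5 in the other. Among the cells of 10000 to 20000 UMIs the same numbers of members, 5 and 1, were past the limit. The share of all genes past it in that band is not given here, so these counts cannot be set against it.

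Part of this difference went with STMN2. Among cells with 0 STMN2 UMIs, 920 with at least 5 and 1208 with 0 UMIs of MKI67 and TOP2A, the log2 ratio was 0.97 for SOX2, 0.62 for SOX1 and SOX3, 0.38 for SOX21, 0.21 for SOX9 (interval -0.10 to 0.53) and -0.77 for SOX5, so 3 members were past 1.5-fold higher, against 14.7% of genes, and SOX5 was past it lower, against 10.7%. Among the cells with 0 UMIs of MKI67 and TOP2A, those with at least 5 STMN2 UMIs had 93.6 CPM of SOX2, 20.2 of SOX3 and 14.9 of SOX21, and those with 0 had 231, 56.8 and 48.1 CPM. There 6 of 9 members (the SOXB genes, SOX6 and SOX9) were past 1.5-fold lower with STMN2, against 7.97% of genes, and 0 higher, against 15.1%.

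**Figure D3:**
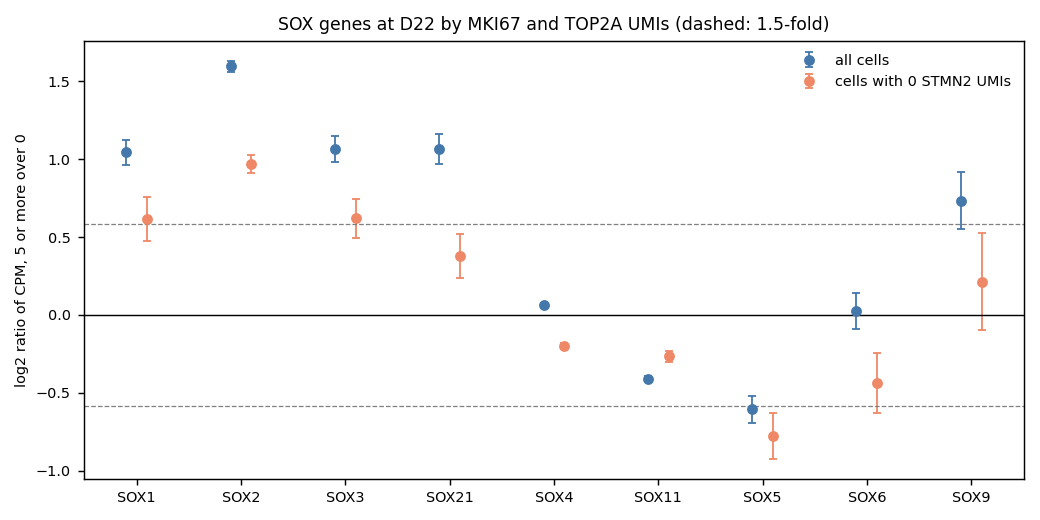
Log2 ratio of CPM at D22 between cells with at least 5 and cells with 0 UMIs of MKI67 and TOP2A (vertical axis) for 9 SOX genes (horizontal axis), over all cells (blue) and over cells with 0 STMN2 UMIs (orange), with 95% counting intervals and dashed lines at 1.5-fold. SOX2 is at 1.60 and 0.97, SOX21 at 1.07 and 0.38, and SOX5 lies below 0 in both.

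The same split gave smaller differences for SOX2 at D5 and D10. There the log2 ratio was -0.13 in D5_dSMADi, -0.02 in D5_XAV939, -0.05 in D10_dSMADi and 0.21 in D10_XAV939. SOX1 was lower in the dividing class of D10_dSMADi, at 51.8 against 80.9 CPM, the only one of 9 members past 1.5-fold there (6.0% of genes were lower and 8.89% higher). In D10_XAV939, 0 of 9 were past it, against 8.4% of genes higher and 6.62% lower. In D5_dSMADi, SOX9 was higher (8.71% of genes) and SOX6 and SOX10 were lower (4.7%). In D5_XAV939, SOX1 was higher with 219 and 21 UMIs (9.0% of genes) and 0 members were lower (3.98%).

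NEUROD4 and NHLH1 are genes of neuronal precursors that have just left the cell cycle. At D22, 2777 cells had at least 5 UMIs of the pair and 3861 had 0. SOX21 was at 13.6 against 58.1 CPM, SOX2 at 105 against 362 CPM, SOX9 at 4.76 against 15.4 CPM and SOX3 at 22.1 against 67.8 CPM. SOX1, SOX4 and SOX6 were lower by less, with log2 ratios of -0.63, -0.60 and -0.80. SOX11 was at 1359.5 against 1013 CPM, which was under 1.5-fold (log2 ratio 0.42, interval 0.41 to 0.44), and SOX5 was at 0.18. In all, 7 of 9 members were past 1.5-fold lower, against 15.2% of 14405 genes, and 0 higher, against 8.60%. The SOXC pair thus lay on opposite sides of 0.

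Late cells were next gated by genes that are no SOX gene. The DLX gate held cells with at least 3 UMIs of DLX1, DLX2, DLX5 and DLX6, factors of GABAergic neurons, and 0 of PPP1R17 and TBR1. The PPP1R17 gate held the reverse, TBR1 being a factor of glutamatergic neurons. At D26 the DLX gate had 1180 cells and the PPP1R17 gate 7291. SOX1 was at 50.1 CPM in the DLX gate and 2.17 CPM in the PPP1R17 gate, SOX2 at 43.8 and 1.55 CPM, and SOX6 at 43.6 and 5.75 CPM. SOX5 was at 22.5 and 78.9 CPM. At D26 SOX1, SOX2 and SOX6 were thus higher in the DLX gate and SOX5 in the PPP1R17 gate, with the SOXD pair on opposite sides. SOX3 was at 4.58 and 1.77 CPM and SOX9 at 2.29 and 4.14 CPM, both low. SOX4 and SOX11 were level, at 3160.3 against 2895 CPM and 1939 against 1900 CPM.

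The log2 ratios of DLX over PPP1R17 at D26 were 4.82 (interval 4.51 to 5.15) for SOX2, 4.53 (interval 4.26 to 4.80) for SOX1, 2.92 (interval 2.72 to 3.12) for SOX6, 1.37 for SOX3, -0.86 for SOX9 and -1.81 (interval -2.00 to -1.62) for SOX5. So 4 of 9 members were past 1.5-fold higher, against 6.97% of 13868 genes, and 2 lower, against 15.1%. At D24, with 323 and 5302 cells, SOX2 was at 120.2 and 4.22 CPM, SOX1 at 26.2 and 2.23 CPM, and SOX5 at 13.3 and 28.7 CPM. The log2 ratio of SOX6 was 0.81, from 11.4 and 6.52 CPM, and SOX9 had 8 and 594 UMIs, a log2 ratio of -2.18. Again 4 of 9 members were past the limit higher, against 6.40% of genes, and 3 lower, against 22.6%, of which SOX21 rests on 1 UMI in the DLX gate. At D22, where the gates held 7.37% and 7.92% of cells, SOX4 differed too, at 4616 CPM in 702 cells of the DLX gate and 1633 CPM in 754 cells of the PPP1R17 gate, and SOX6 was at 49.5 and 18.7 CPM. SOX5, at 57.6 and 50.6 CPM, and SOX9, at 16.5 and 10.6 CPM, were not lower in the DLX gate on that day. SOX2 was at 363 and 38.6 CPM, SOX3 at 73.5 and 7.80 CPM, SOX21 at 64.2 and 8.20 CPM and SOX1 at 47.4 and 8.41 CPM. SOX21 was thus higher in the DLX gate at D22, unlike at D24.

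The IRX gate held cells with at least 3 UMIs of IRX1, IRX2, IRX3 and IRX5, homeobox genes of neural patterning. Of the 3 gates, SOX3 and SOX21 were highest in this one on each late day. SOX3 was at 219 CPM in the 498 cells of the gate at D22, against 42.0 CPM in the whole library, at 59.3 CPM in 139 cells at D24 and at 51.9 CPM in 177 cells at D26. SOX21 was at 110.2, 28.0 and 54.9 CPM. SOX2 was at 338, 91.4 and 61.8 CPM in the IRX gate, against 363, 120.2 and 43.8 CPM in the DLX gate. At D26 SOX2 was thus higher in the IRX gate than in the DLX gate. The few cells with at least 5 UMIs of MKI67 and TOP2A, 47 at D24 and 7 at D26, had 307 and 317 CPM of SOX2. These cells were deeper, with a median of 11462 and 27275 UMIs against 7180 and 8485 in the whole libraries, and doublets were left in. SOX6 was low in the IRX gate, at 8.64, 1.65 and 5.93 CPM. At D22, 3 of 9 members (SOX2, SOX3 and SOX21) were past 1.5-fold higher than in the whole library, against 12.7% of genes, and 4 lower (SOX4, SOX5, SOX6 and SOX9), against 18.2%.

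**Figure D4:**
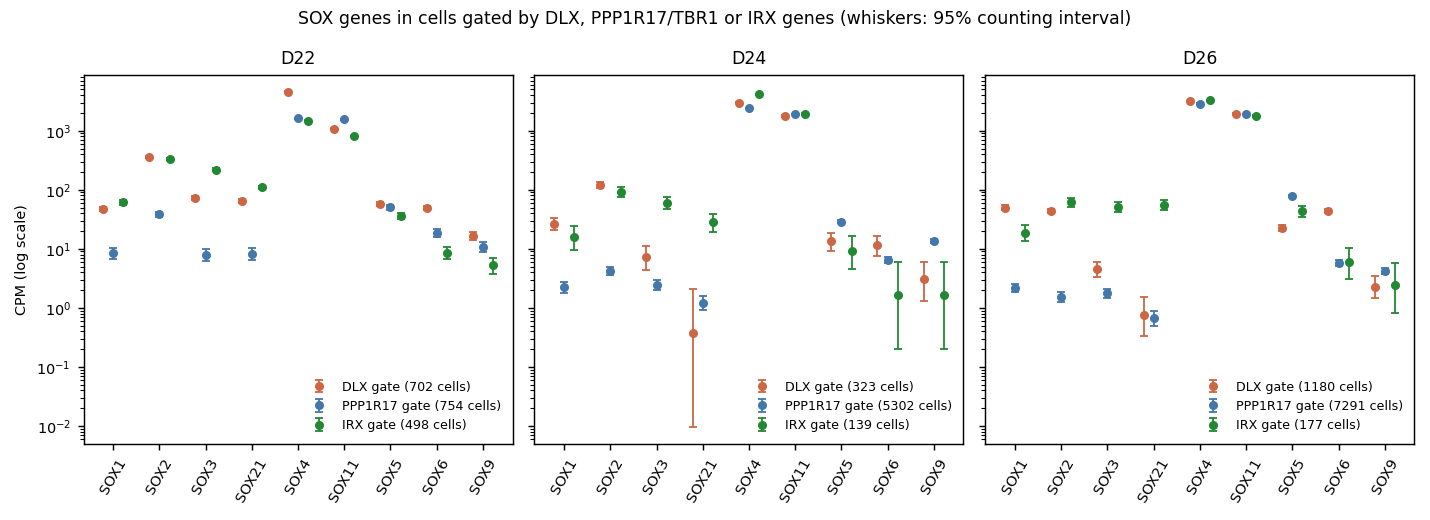
Level of 9 SOX genes (horizontal axis) in CPM (vertical axis, log scale) in cells gated by DLX genes (orange), PPP1R17 and TBR1 (blue) or IRX genes (green) at D22, D24 and D26, with 95% counting intervals and the number of cells of each gate. At D26 SOX1 and SOX2 are at 50.1 and 43.8 CPM in the DLX gate and 2.17 and 1.55 CPM in the PPP1R17 gate, SOX5 is the reverse, and SOX4 and SOX11 hardly differ.

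GNRH1 encodes the hormone the protocol aims at. Cells with at least 20 GNRH1 UMIs, a limit chosen after the values were seen, were 357 at D24 and 1047 at D26, and 7797 and 6194 cells had 0. At D26 SOX1 was at 37.6 CPM in the first and 4.52 CPM in the second (log2 ratio 3.06, interval 2.82 to 3.29), SOX6 at 26.4 and 8.26 CPM, and SOX2 at 26.5 and 6.01 CPM. SOX5 was at 30.6 and 75.2 CPM, and SOX4 was level at 2993 and 2963 CPM. At D24 SOX2 was the one that differed most, at 105 and 12.2 CPM, and SOX6 had 26 UMIs in the GNRH1 class, a log2 ratio of 0.24 with an interval of -0.39 to 0.82. Within the DLX gate of D26, SOX1 was at 48.9 CPM in 655 cells with at least 20 GNRH1 UMIs and 46.8 CPM in 188 cells with 0 (log2 ratio 0.06, interval -0.31 to 0.46). SOX6 was lower there in the GNRH1 class, at 32.8 against 58.6 CPM, and SOX3 at 2.27 against 12.5 CPM. SOX2 was at 35.1 against 48.1 CPM within that gate (log2 ratio -0.46, interval -0.85 to -0.05), and within the DLX gate of D24 at 146 against 80.0 CPM (0.87, interval 0.41 to 1.35). The direction of SOX2 within the gate thus differed between the days.

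Cells that held at least 2 UMIs of a member were set against cells with 0, and the genes with the largest fold were listed, with 10 CPM added to both. At D22 the 1129 cells with SOX3 and the 967 cells with SOX21 were both led by NR2F1, SFRP2, PTX3 and WLS, with NR2F1 at 178 against 9.09 CPM for SOX3. At D26 the 150 cells with SOX1 were led by DLX6-AS1, DLX1 and SCGN, and GNRH1 was among their first 10 genes, at 12208 against 2366 CPM. The 212 cells with SOX6 were led by RASD1, CRABP2 and DLX1, and the 1541 with SOX5 by genes of small fold, among them LHX1 at 194 against 134 CPM. In D10_XAV939 the 771 cells with SOX9 were led by ID4, HES5 and NRARP, genes of Notch-active progenitors, with HES5 at 1163 against 662 CPM. The cells with the SOX gene were deeper in all of these splits, for SOX9 with a median of 29935 against 21046 UMIs.

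Within a library, SOX2 and the other members were compared at equal depth, over cells thinned to 1500 UMIs late and 10000 early. At D26 the 133 cells with a SOX2 UMI had 70.2 CPM of SOX1 against 8.42 in the 10923 cells without, and 30.1 against 2.44 CPM of SOX21, from 14 UMIs of SOX1 and 6 of SOX21 in the cells with SOX2. SOX5 went the other way, at 30.1 against 70.1 CPM at D26, from 6 UMIs in the cells with SOX2, and was at 8.13 against 24.5 CPM at D24, from 2, where the intervals overlap. SOX9 had 0 UMIs in the cells with SOX2 at D26, which allows up to 18.5 CPM, and was at 4.46 CPM in those without. A difference in SOX9 was thus not detectable at this depth. At D24 the 164 cells with SOX2 had 48.8 CPM of SOX3, from 12 UMIs, against 4.40, and 252 against 5.37 CPM of TOP2A, while at D26 TOP2A was at 25.1 against 1.34 CPM. In D10_dSMADi SOX3 did not follow SOX2 in this way, at 180 CPM in the 649 cells with 0 to 4 SOX2 UMIs and 161 CPM in the 591 with 10 or more. In D10_XAV939 it was at 54.6 CPM in 238 such cells with 0 to 4 SOX2 UMIs and 69.6 CPM in 1079 with 10 or more. The intervals of these SOX3 levels overlap in both cultures. Cells with 0 to 4 SOX2 UMIs also held more STMN2 than those with 10 or more. It was at 1074 against 12.0 CPM in D10_XAV939 and at 108 against 3.38 CPM in D10_dSMADi.

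SOX10, known for its role in neural crest and oligodendrocytes, had UMIs in 98 of 2419 D5_dSMADi cells, 13 of them with at least 2. In these 13 cells the neural crest genes FOXD3, TFAP2A, TFAP2B, SNAI2, PAX3, PAX7 and ETS1 had 0 UMIs, which allows up to 9.32 CPM of each (upper end of the exact Poisson interval). In the 2321 cells without SOX10 they were at 0.0263 to 0.670 CPM, so that a difference was not detectable at this depth. NGFR, another gene of the neural crest list, was at 7.58 CPM in the 13 cells, from 3 UMIs, at 16.8 CPM in the 85 cells with 1 SOX10 UMI and at 13.7 CPM in those without. SOX2 was at 877 CPM in them and 715 CPM in the cells without SOX10.

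Genes whose course over the 8 libraries was most like that of a member are given as a description, by Pearson's r of log2(CPM + 1) over 8 points, among 8390 genes. SOX4 was closest to MARCKS (0.998), SOX2 to TGIF2 (0.997), SOX11 to TAGLN3 (0.995), SOX21 to FGF8 (0.994) and SOX6 to ID4 (0.985). PPIL4 and TTC28 were closest to SOX5 (0.981), PARVA to SOX3 (0.969), PLEKHG1 to SOX1 (0.965), HPF1 to SOX9 (0.930) and RSPO2 to SOX10 (0.929). The libraries differ in preparation, depth and cell makeup, and all 8 points share these differences.

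Partners and known targets of SOX factors were looked up from fixed lists. POU5F1, the partner of SOX2 in pluripotent cells, was at 1244 CPM at D0 and 26.6 CPM in D5_dSMADi while SOX2 was higher at D5 than at D0, and PAX6, a partner in eye and forebrain progenitors, was at 5.73 and 157 CPM. With XAV939 at D10, POU3F3 was higher (10.4 against 1.40 CPM) and PAX6 and POU3F1 were lower, 1 and 2 of the 8 partners measured, with a median log2 ratio of 0.00, where 6.78% of all genes were higher and 10.2% lower. Of 10 SOXB1 targets, 1 was past 1.5-fold lower (GLI3), with a median of 0.17. Of 6 SOXC targets, 2 were higher, DCX (29.6 against 5.78 CPM) and TEAD2, with a median of 0.50. Of 7 SOXE targets, 3 were higher (ERBB3, COL2A1 and DCT) and 1 lower, with a median of 0.34. COL2A1 was at 160.5 against 66.5 CPM, while ERBB3, in cells without SOX10, was at only 1.19 against 0.651 CPM. The counts of targets stand beside the same 6.78% and 10.2%. The median of all genes was 0.02 among those with 50 UMIs in each culture.

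At D22 the SOXC targets TUBB3, DCX and NFASC were lower in the dividing class, 3 of 6, and the SOXB1 targets HESX1, GLI2 and GLI3 higher, 3 of 9, where 17.4% of all genes were lower and 15.1% higher. Of 6 SOXE targets, 2 were higher (MITF and COL2A1) and 3 lower, among them S100B and DCT. Among cells with 0 STMN2 UMIs, 0 of 8 SOXB1 targets were higher and HES5 was lower, and DCX and NFASC were lower, 2 of 6 SOXC targets, where 14.7% of all genes were higher and 10.7% lower. From D22 to D24, 7 of 9 SOXB1 targets were past 1.5-fold lower, among them NOTCH1 (43.7 to 0.670 CPM), HES5 and NES, and FABP7 was higher, where 28.3% of all genes were lower and 21.1% higher. Of the SOXC targets 4 of 6 were higher, with DCX at 401 and 853 CPM, and TEAD2 was lower. The remaining SOX genes looked up were 9. SOX12, the remaining SOXC gene, was at 24.3 to 69.9 CPM, and SOX13 was highest at D0, at 20.1 CPM. The other 7 were at 2.26 CPM or less in every library.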

How the data were processed

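The deposited counts are UMIs per gene and cell, made by the authors with Cell Ranger on GRCh38. The labels name version 3.1 and the file headers 3.1.0 for D22 to D26 and 6.1.2 for the pooled run. The tagged conditions are named by the files themselves. The study's limits on UMIs, genes, mitochondrial share and complexity (log10 genes per log10 UMI) were applied to cells, except the complexity limit at D0, which would have kept 1 cell. Doublets were left in, and scanpy 1.11.5 gave 1.68% to 7.59% of cells per library a Scrublet score of 0.25 or more.

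UMIs were summed over cells and divided by the group's total (CPM). With 1 library per condition there was no test. Intervals are exact, Poisson for a CPM and binomial for a ratio, at 95%, and cover counting error only. A gene was past the limit at 1.5-fold with at least 50 UMIs in the pair, and a count of 0 was taken to allow 3 UMIs. Shares of cells used cells thinned to 10000 UMIs (D0 to D10) or 1500 (D22 to D26). The ratio, its interval and the 1.5-fold limit were checked on simulated counts. Coding sequences were read from GRCh38 with GENCODE 44 and aligned as translated with MAFFT. Python 3.11.15, numpy 2.4.6, scipy 1.17.1 and pandas 2.3.3 were used. The genes named were the 10 members, their most similar genes and fixed lists of relatives, partners and targets. The members and lists were chosen with earlier results of these data known. Some genes of the marker and target lists are not reported here.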

Additional observations from a re-analysis of the deposited data

Results flagged for a closer look

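For SOX3 the XAV939 cultures lay on opposite sides of their controls at D5 and D10. The log2 ratio of CPM was 0.10 at D5 and -1.29 at D10. At D5 SOX3 was near level, since the intervals of its CPM in the D5 cultures overlapped and the median of all genes was 0.05. SOX4 also changed side, at 0.18 at D5 and -0.21 at D10. Each value compares 1 tagged culture with 1 other of the same pooled run, and the difference between the days was not tested.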

How the results depend on the processing

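Of 534 log2 ratios recomputed under the alternatives, 25 had another sign than the reported value, in each case for a member whose reported value was under 1.5-fold. Of these, SOX1 with XAV939 at D5 was at -0.80 in cells with 0 UMIs of MKI67 and TOP2A (reported 0.05), and SOX4 at D22 at -1.26 with S phase genes (reported 0.06). Of 293 recomputed ratios of members past 1.5-fold, 11 were under it. With 2-fold as the limit, 1 member was lower with XAV939 at D5, 1 was higher at D10, 0 were lower in dividing cells at D22, 0 were higher from D22 to D24 and 1 was lower from D24 to D26. Among cells with at least 5 UMIs of MKI67 and TOP2A, 1 member was lower with XAV939 at D5, and among cells with 0, 1 was higher. With no minimum of UMIs, 2 members were lower with XAV939 at D10. For the member lower in dividing cells at D22, a gate of at least 3 UMIs, MKI67 alone and a gate after thinning to 1500 UMIs each gave 0, with SOX5 at -0.57, -0.57 and -0.53 against -0.61, and S phase genes in 30 cells without MKI67 or TOP2A gave 3. In cells with 0 STMN2 UMIs, an alternative chosen after seeing the data, 3 members were higher. Without mitochondrial and ribosomal protein genes in the scaling, 0 were higher from D22 to D24. From D24 to D26, 4 were lower with median-of-ratios scaling and 1 with the mean of CPM per cell. The shares of all genes past the limit under these settings are not set beside the counts here. The counts show only how the calls of members moved. Beyond what each setting itself alters, the cause was not tested. Leaving out the complexity limits was also added after seeing the data. No paired analysis was possible because each condition is 1 library. Low counts limit SOX10 and the late gates of few cells.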
